A study of Mus musculus with 8 samples.

Results

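The BMP pathway and its Id target genes were followed here in mouse pluripotent and fibroblast RNA through 10 genes: the ligands Bmp4 and Bmp7, the type I receptor Bmpr1a, the receptor-regulated Smad1 and Smad5, the inhibitory Smad6, and Id1, Id2, Id3 and Id4. They were chosen by name, as all probes of a 1-colour Agilent expression array that carry one of these symbols. This gave 10 genes, 18 probes and 36 spots, of 27670 named genes, 41174 probes and 43379 spots on the array. Total RNA from each of 4 cell populations was labelled with Cy3 and hybridised to 1 array, so that there was 1 array per group and no replicate. The ES array held embryonic stem cells of the 129/Ola background, taken from blastocysts. The MEF array held mouse embryonic fibroblasts, for which the labels name no strain. PM2i-iPSC and OM2i-iPSC are induced pluripotent stem cell preparations made from MEFs with combinations that contained purmorphamine (PM) or an oxysterol (OM), each followed by 2i/LIF. Purmorphamine and certain oxysterols activate Smoothened of the Hedgehog pathway, and 2i/LIF is a medium with inhibitors of MEK and GSK3 and the cytokine LIF. Both preparations therefore share the 2i/LIF step, which is not recorded for the MEF array or the ES array, and their doses, times and clone or passage numbers were not stated in the labels. The other 4 arrays of the series are of an Affymetrix type and were not used here.

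BMP ligands bind paired type I and type II receptors at the cell surface, and the activated type I receptor phosphorylates Smad1 and Smad5, which enter the nucleus with Smad4 and bind GC-rich sites near their target genes. Smad6 and Smad7 damp the signal and are themselves induced by it, while secreted antagonists such as Noggin and Chordin hold the ligand away from the receptor. The Id genes are among the best known direct targets; Id proteins have a helix-loop-helix domain but no basic region, so they pair with E proteins and keep them from DNA. In mouse ES cell culture, BMP4 given with LIF is known to maintain self-renewal, in part through Id genes, and in fibroblasts Id genes are known to respond to serum and growth factors.

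Promoter sequences of the Id genes are shown because these 4 targets did not share 1 pattern over the arrays, and GC-rich Smad sites were searched in them. RefSeq's table (GRCm38.p6) held promoters for 8 of the 10 genes, and Bmp7 and Id1 had no entry. Each run below is the 250 bases upstream of the annotated start, 5′ to 3′ on the strand of the gene. Capitals mark GGCGCC or GGAGCC, the letters of 2 GC-rich Smad elements, searched on both strands (GGAGCC reads GGCTCC on the opposite strand).
Id2, chr12:25096093-25096342, minus strand: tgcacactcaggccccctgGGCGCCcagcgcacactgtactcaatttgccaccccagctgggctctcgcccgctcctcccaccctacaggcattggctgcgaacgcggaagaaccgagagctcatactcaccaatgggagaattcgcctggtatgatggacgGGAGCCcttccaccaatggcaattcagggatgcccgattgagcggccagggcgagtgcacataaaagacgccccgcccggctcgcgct
Id3, chr4:136143572-136143821, plus strand: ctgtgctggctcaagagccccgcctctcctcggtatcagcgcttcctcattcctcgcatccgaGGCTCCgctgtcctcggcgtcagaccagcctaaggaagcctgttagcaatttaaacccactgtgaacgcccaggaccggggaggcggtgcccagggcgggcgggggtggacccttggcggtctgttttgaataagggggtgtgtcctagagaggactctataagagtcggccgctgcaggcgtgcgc
Id4, chr13:48260866-48261115, plus strand: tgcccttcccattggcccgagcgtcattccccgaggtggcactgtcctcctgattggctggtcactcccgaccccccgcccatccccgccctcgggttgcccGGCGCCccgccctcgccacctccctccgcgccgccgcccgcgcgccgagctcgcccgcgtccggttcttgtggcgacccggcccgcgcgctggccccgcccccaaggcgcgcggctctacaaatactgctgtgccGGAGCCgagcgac
The Id2 window held GGCGCC at position -231 and GGAGCC at -88 from the start. The Id4 window held GGCGCC at -148 and GGAGCC at -13, and the Id3 window held GGAGCC at -187 on the opposite strand and no GGCGCC. Among 32851 promoter windows of the same length, 9.59% held GGCGCC and 26.0% held GGAGCC, so neither is rare, and a match is a description of letters and not a shown site. The GC content of the windows was 62.8% for Id2 and Id3 and 75.6% for Id4, beside a median of 52.4% over all windows.

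The array probes are 60-base oligonucleotides, and those below are the only probes of Bmp4, Smad6 and Id3 and the second probe of Id2. The counts and medians use the brightest Id2 probe, whose sequence is not printed. They are given 5′ to 3′ with the span that the array file states on mouse build mm7; exon and UTR annotation of that build was not used here.
Bmp4 probe, chr14:41704207-41704266, minus strand: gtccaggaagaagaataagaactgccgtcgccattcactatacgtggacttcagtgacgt
Smad6 probe, chr9:63982002-63982061, minus strand: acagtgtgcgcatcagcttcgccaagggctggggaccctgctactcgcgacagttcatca
Id2 second probe, chr12:22931820-22932167, minus strand: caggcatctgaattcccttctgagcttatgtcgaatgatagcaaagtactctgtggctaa
Id3 probe, chr4:135522597-135522771, plus strand: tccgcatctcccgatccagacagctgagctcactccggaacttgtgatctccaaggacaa
The spans of the Id2 and Id3 probes exceed the probe length by 288 and 115 bases, so both probes cross an intron of their gene and match spliced RNA. The 2 Id1 probes lie on chr2:152478167-152478226 and chr2:152478157-152478216 and share 50 genomic bases, so they are close to a repeat measurement of 1 site. The 2 Bmp7 probes (chr2:172614090-172614149 and chr2:172614169-172614228) lie 19 bases apart.

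Levels are log2 of the processed signal minus log2 of the 75th percentile of the array, so 0 is the 75th percentile and 1 unit is 2-fold; they compare arrays within a probe and never 1 probe with another. A gene is read from its brightest probe, and its other probes are given beside it. The percentile lay at signals of 1877 to 3531, 63.4% to 72.8% of spots were well above background, and the lowest signal well above background, which sets the dim limit, was 16.3 on the MEF array and 90.1 to 147 on the other 3. ES and PM2i-iPSC shared a slide, OM2i-iPSC was on another slide of the same scan day, and MEF stood alone in slide, scan day and software version. Effects of slide and of group therefore cannot be told apart outside the comparison of PM2i-iPSC with ES. The 8 pluripotency markers were well above background on every array, with a summed level, in multiples of the 75th percentile, of 112 in ES, 92.8 in PM2i-iPSC, 82.4 for OM2i-iPSC and 1.43 in MEF. The 10 fibroblast markers summed to 177 in MEF and to 8.91, 6.67 and 6.75 in ES, PM2i-iPSC and OM2i-iPSC; Lum, Prrx1 and Lox were not well above background in PM2i-iPSC, nor Dcn and Lum in OM2i-iPSC. The defining markers thus went with the cell labels.

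With 1 array per group no test could be made and no p-value is given. Precision is known only from repeat spots within an array, with an SD of 0.19 (log2) for a spot and 0.268 for a difference between 2 spots, and it leaves out the spread between cultures. A gap of at most 0.268 is called within the spread of spots. This limit is 1 SD, so an order that rests on a gap just above it is not resolved. In RNA from whole cultures, fewer cells that express a gene and less RNA per cell cannot be told apart.

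Against MEF, more members were lower than higher in each pluripotent population, and Id1, Id3 and Id4 were among the lower ones each time. In ES, 2 of the 10 members were at least 2-fold higher than in MEF, where 33.8% of all genes that entered were, and 4 were at least 2-fold lower, where 22.4% were. In PM2i-iPSC the counts were 1 higher against 34.0% and 4 lower against 23.6%. In OM2i-iPSC they were 1 higher against 36.7% and 6 lower against 23.3%. The median difference of the members from MEF was 0.15 in ES, -0.12 in PM2i-iPSC and -1.49 in OM2i-iPSC, beside 0.29, 0.28 and 0.38 over all genes; scaled by the median of detected probes, the value for ES turned to -0.13. On their brightest probes, Smad1, Id1, Id3 and Id4 were lower than in MEF by 2-fold or more in each of the 3 pluripotent populations. The second Smad1 probe was level with MEF in OM2i-iPSC (1.03-fold lower). These comparisons also share the MEF array.

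Against ES, the 2 preparations differed in how many members stood apart. On the brightest probes, no member was at least 2-fold higher in PM2i-iPSC than in ES, where 14.0% of all genes were, and 1, Smad6, was at least 2-fold lower, where 11.3% were. The second probes of Bmp7 and Id2 did read higher in PM2i-iPSC than in ES, by 2.01-fold and 2.13-fold. In OM2i-iPSC 1 member, Id3, was higher against 20.6% of all genes, and 5 members (Bmp4, Bmp7, Bmpr1a, Id1 and Id4) were lower against 13.6%. Of these 5, Bmp4 has 1 probe, and the second probes of Bmp7, Id1 and Id4 were lower by less than 2-fold and that of Bmpr1a was higher. In OM2i-iPSC set directly beside PM2i-iPSC, Smad6 and Id3 were higher, 2 of 10 against 16.9% of all genes, and 6 members (Bmp4, Bmp7, Bmpr1a, Smad5, Id1 and Id4) were lower against 12.4%. The median difference of the members was -0.22 for PM2i-iPSC minus ES, -0.74 for OM2i-iPSC minus ES and -1.04 for OM2i-iPSC minus PM2i-iPSC, beside -0.04, 0.05 and 0.09 over all genes. With the median over a gene's probes in place of the brightest probe, the last of the member medians came to -0.15. No difference between the preparations has a replicate.

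**Figure D1:**
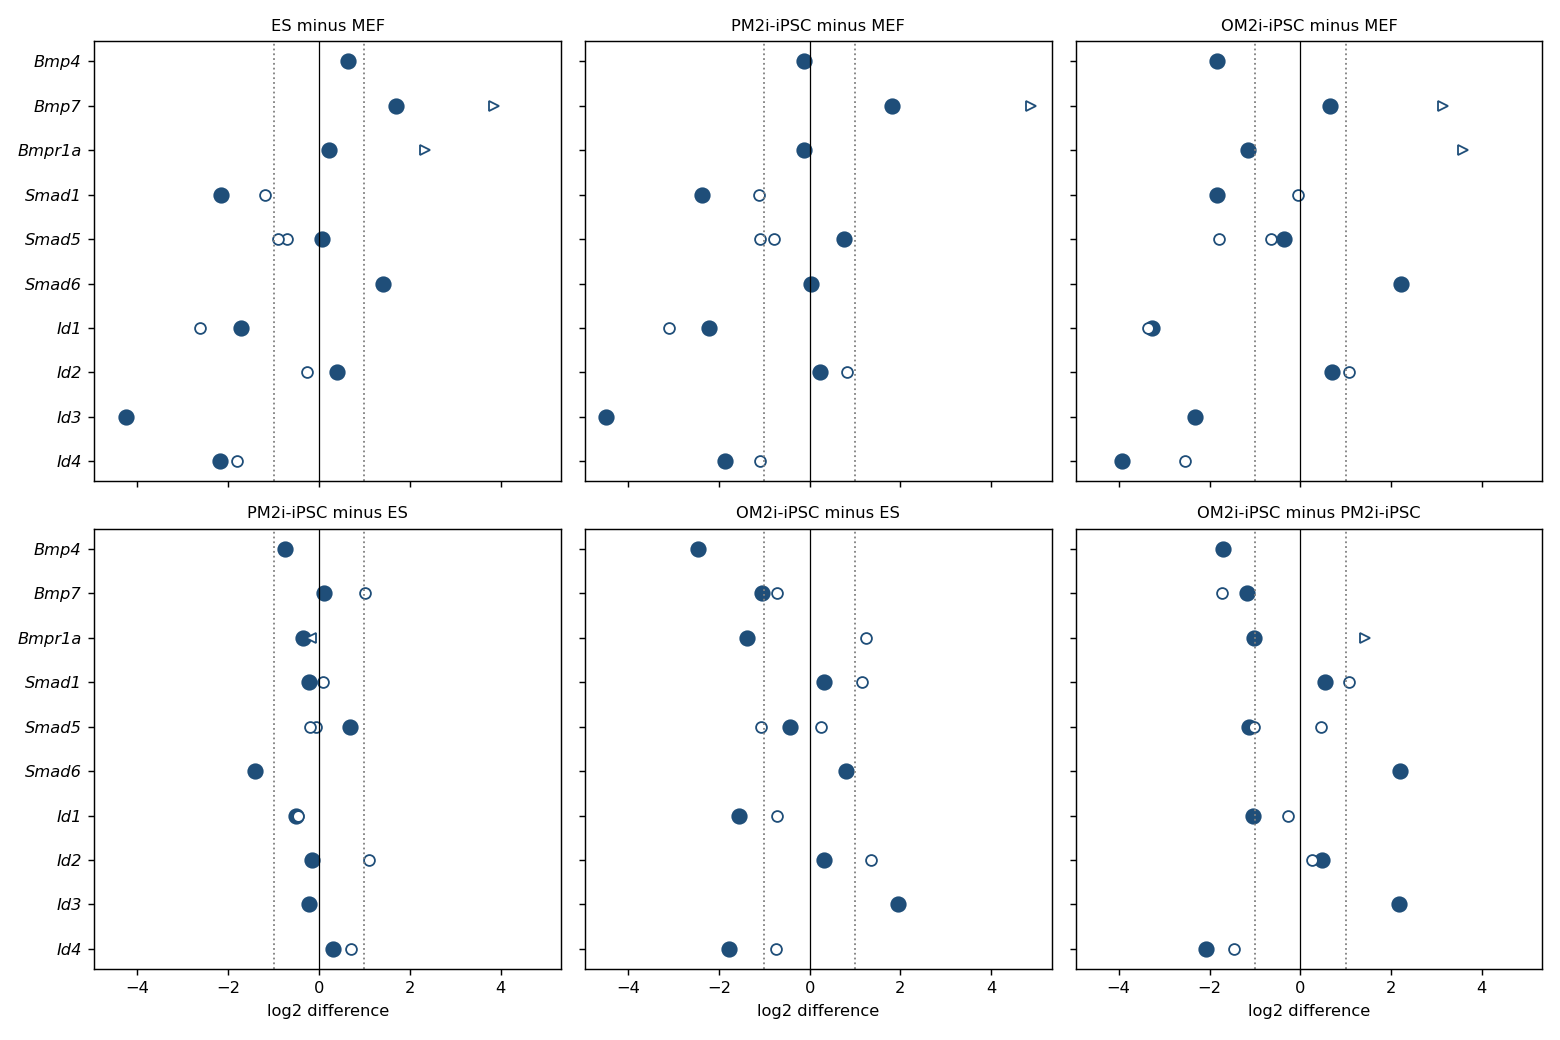
Log2 difference of each member (rows) in each of the 6 comparisons of 2 arrays; filled symbols are the brightest probe of a gene, open symbols its other probes, triangles mark values that are only a bound, and dotted lines mark 2-fold. Id3 lies at -4.26 and -4.48 for ES and PM2i-iPSC minus MEF and at 2.17 for OM2i-iPSC minus PM2i-iPSC, while the 2 Bmpr1a probes lie on opposite sides of 0 for OM2i-iPSC.

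Bmp4, the ligand added to serum-free ES cultures, was measured on 10 spots per array (1 MEF spot was flagged and left out), where most member probes had 1. Its level was 1.57 ± 0.28 in ES (SD over 10 spots) and 0.93 ± 0.06 in MEF (9 spots), against 0.81 ± 0.31 in PM2i-iPSC and -0.90 ± 0.31 for OM2i-iPSC (10 spots each). The ES spots ran from 1.24 to 2.00, the MEF spots from 0.80 to 1.0, the PM2i-iPSC spots from 0.23 to 1.13 and the OM2i-iPSC spots from -1.52 to -0.62. ES spots thus lay above all others, MEF and PM2i-iPSC overlapped, and OM2i-iPSC lay below the other 3 arrays without overlap. Bmp4 was 5.52-fold lower in OM2i-iPSC than in ES, 3.55-fold lower than in MEF and 3.27-fold lower than in PM2i-iPSC, while PM2i-iPSC was 1.69-fold below ES.

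Bmp7, a second ligand of the same receptors, was low in MEF and higher in the pluripotent arrays. The brightest probe, with 1 spot, read -2.16 in ES and -3.86 in MEF, -2.04 in PM2i-iPSC and -3.21 for OM2i-iPSC. The second probe, with 10 spots, read -2.99 ± 0.18, -7.15 ± 0.73, -1.98 ± 0.11 and -3.71 ± 0.25 in the same order (SD over spots). Both probes placed PM2i-iPSC above OM2i-iPSC and MEF last. On the 10-spot probe the spots of the 4 arrays did not overlap, running from -3.22 to -2.73 in ES, -2.09 to -1.72 in PM2i-iPSC and -4.28 to -3.46 in OM2i-iPSC. In MEF only 2 of its 10 spots were well above background, so Bmp7 exceeded MEF by at least 14.5-fold in ES, at least 29.2-fold in PM2i-iPSC and at least 8.79-fold for OM2i-iPSC on that probe, against 3.25-fold, 3.53-fold and 1.57-fold on the brightest, the last of which quantile scaling turned to a log2 difference of -0.25. PM2i-iPSC and ES were level on the brightest probe, 0.12 apart, and 2.01-fold apart on the other. OM2i-iPSC was 2.25-fold and 3.32-fold lower than PM2i-iPSC on the 2 probes. It was 2.07-fold below ES on the brightest probe and 1.65-fold below it on the 10-spot probe, and the normexp background correction (log2 -0.83) and the median over both probes (-0.89) took the former inside 2-fold. Bmp4 and Bmp7 therefore had different lowest arrays, OM2i-iPSC for Bmp4 and MEF for Bmp7.

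**Figure D2:**
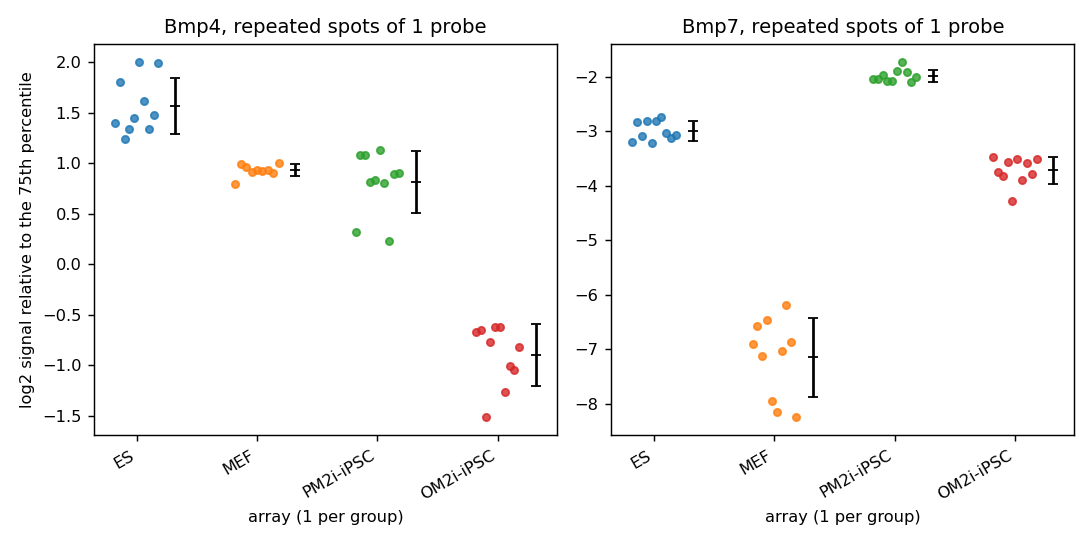
Every spot of the Bmp4 probe and of the 10-spot Bmp7 probe on the 4 arrays (log2 relative to the 75th percentile), with the mean and SD over spots at the right of each cloud. For Bmp4 the OM2i-iPSC spots end at -0.62, below the lowest PM2i-iPSC spot at 0.23; for Bmp7 the MEF spots end at -6.18, with 2 of 10 well above background.

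Bmpr1a, the type I receptor that binds BMP2 and BMP4, gave no single answer, because its 2 probes disagreed. The brightest (chr14:31844499-31844558, minus strand) read 2.76 in ES and 2.54 in MEF, 2.41 in PM2i-iPSC and 1.38 on the OM2i-iPSC array. ES, MEF and PM2i-iPSC were neighbours within the spread of spots, and OM2i-iPSC was 2.59-fold below ES, 2.23-fold below MEF and 2.04-fold below PM2i-iPSC. The other probe, 3291 bases away (chr14:31847850-31847909), was dim, at -4.41 in ES and -3.17 for OM2i-iPSC, and not well above background in MEF and PM2i-iPSC (-6.76 and -6.50). On it OM2i-iPSC was the highest array, 2.37-fold above ES and at least 2.67-fold above PM2i-iPSC. The reading of OM2i-iPSC as lower thus holds for the brighter probe, and the sign turns on the dimmer one.

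Smad1, a receptor-regulated Smad that carries the BMP signal, was highest in MEF. The brightest probe (chr8:77879339-77879398, minus strand) read -0.03 in ES and 2.12 in MEF, -0.25 in PM2i-iPSC and 0.29 on the OM2i-iPSC array. ES and PM2i-iPSC did not differ beyond the spread of spots, and the 3 pluripotent arrays were 4.44-fold, 5.17-fold and 3.56-fold below MEF. The second probe, 343 bases away, read -0.83, 0.37, -0.75 and 0.32 in the same order. On it ES and PM2i-iPSC were 2.30-fold and 2.17-fold below MEF, while OM2i-iPSC was level with MEF (1.03-fold lower) and 2.23-fold above ES. The lower level in ES and PM2i-iPSC was thus common to both probes and that in OM2i-iPSC was not.

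Smad5, the close relative of Smad1, had 3 probes with different orders. The brightest (chr13:55830913-55830972, plus strand) read 0.01 in ES and -0.06 in MEF, 0.71 in PM2i-iPSC and -0.42 for OM2i-iPSC. Its only 2-fold difference was OM2i-iPSC below PM2i-iPSC, by 2.18-fold, and normexp took it inside 2-fold (log2 -0.85). The second probe read -0.36, 0.36, -0.42 and -1.44, and there too OM2i-iPSC was below PM2i-iPSC, by 2.02-fold. The third read -1.76, -0.87, -1.97 and -1.52, with OM2i-iPSC 1.36-fold above PM2i-iPSC. Smad5 thus had no order that all its probes shared.

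Smad6, an inhibitory Smad that BMP signalling itself induces, was the only member at least 2-fold apart between ES and PM2i-iPSC on the brightest probes. Its single probe read -2.54 in ES and -3.96 in MEF, -3.94 in PM2i-iPSC and -1.73 for OM2i-iPSC. OM2i-iPSC was highest, ES second, and MEF and PM2i-iPSC were 0.02 apart, inside the spread of spots (quantile scaling put PM2i-iPSC below MEF, at -0.75). The OM2i-iPSC level of Smad6 exceeded MEF by 4.67-fold, PM2i-iPSC by 4.60-fold and ES by 1.74-fold, and PM2i-iPSC was 2.64-fold below ES. Bmp4 was thus lowest, and Smad6 highest, on the OM2i-iPSC array. Another background correction (normexp) took Smad6 in PM2i-iPSC against ES just inside 2-fold (log2 -0.97), and it and quantile scaling did the same for ES against MEF (0.82 and 0.73).

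**Figure D3:**
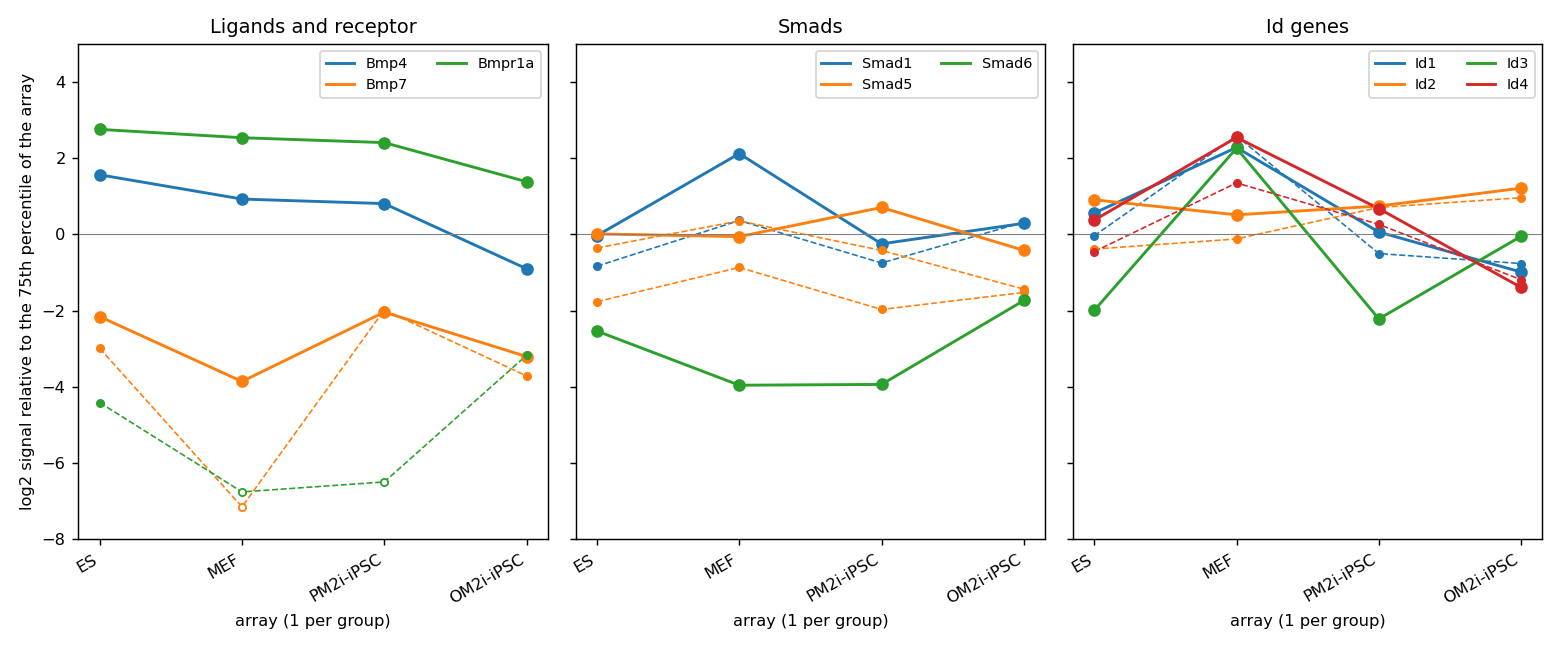
Log2 level of every member probe on the 4 arrays, in panels for ligands and receptor, Smads, and Id genes; thick lines and large points are the brightest probe, dashed lines the others, and open points were not well above background. In the Id panel MEF is the peak for Id1, Id3 and Id4 on every probe, and Id2 stays between -0.38 and 1.21.

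On the brightest probes, Id3 showed the widest differences of all members between ES or PM2i-iPSC and MEF. Its probe, which crosses an intron, read -1.99 in ES and 2.26 in MEF, -2.22 in PM2i-iPSC and -0.05 on the OM2i-iPSC array. ES and PM2i-iPSC were low and within the spread of spots of each other, MEF was high, and OM2i-iPSC lay between. Against MEF, Id3 was lower by 19.1-fold in ES, by 22.3-fold in PM2i-iPSC and by 4.97-fold for OM2i-iPSC. OM2i-iPSC was 3.85-fold above ES and 4.50-fold above PM2i-iPSC, and no other Id gene was 2-fold or more higher there than on both other pluripotent arrays on its brightest probe. Like Id1, Id3 and Id4, the 10 fibroblast markers were highest in MEF (summed level 177, against 6.67 to 8.91), and their part in the Id values was not tested.

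Id1, the target most often used to read BMP activity, was also highest in MEF. The brightest probe read 0.56 in ES and 2.28 in MEF, 0.06 in PM2i-iPSC and -0.99 for OM2i-iPSC, and the probe that overlaps it read -0.04, 2.59, -0.50 and -0.76. Both placed the arrays in the order MEF, ES, PM2i-iPSC, OM2i-iPSC, with the last 2 inside the spread of spots on the second probe. MEF exceeded ES by 3.30-fold, PM2i-iPSC by 4.66-fold and OM2i-iPSC by 9.64-fold on the brightest Id1 probe, and by 6.16-fold, 8.50-fold and 10.2-fold on the other. OM2i-iPSC was 2.92-fold below ES and 2.07-fold below PM2i-iPSC on the brightest probe, and 1.66-fold and 1.20-fold on the other, so that 2-fold below ES or PM2i-iPSC was reached on 1 of the 2 probes.

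Id4, which is known from neural progenitors and can oppose the other Id proteins, shared the peak in MEF. Its brightest probe (chr13:47746630-47746689, plus strand) read 0.38 in ES and 2.55 in MEF, 0.68 in PM2i-iPSC and -1.39 for OM2i-iPSC. The second read -0.45, 1.35, 0.27 and -1.19, and on both the order was MEF, PM2i-iPSC, ES, OM2i-iPSC. The gap between PM2i-iPSC and ES was 0.30 on the brightest probe, just above the spread of spots, and 0.72 on the other. All other gaps were wider than 0.7. OM2i-iPSC was 15.3-fold below MEF on the brightest probe and 5.82-fold on the other, and 4.19-fold and 2.74-fold below PM2i-iPSC. It was 3.40-fold below ES on the brightest probe and 1.67-fold on the other. Id4 thus went the opposite way to Id3 between the preparations, on the same 2 arrays.

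Id2, widely expressed and known to bind E proteins as the other Id proteins do, was the Id gene with the narrowest range. The brightest probe (chr12:22930541-22930600, minus strand) read 0.91 in ES and 0.52 in MEF, 0.75 in PM2i-iPSC and 1.21 for OM2i-iPSC, and none of its 6 differences reached 2-fold. ES, PM2i-iPSC and MEF were neighbours within the spread of spots. The intron-crossing second probe read -0.38, -0.12, 0.71 and 0.96, and put PM2i-iPSC 2.13-fold and OM2i-iPSC 2.55-fold above ES, and OM2i-iPSC 2.12-fold above MEF. Id2 was therefore not lower than MEF in the preparations on either probe, in contrast to Id1, Id3 and Id4.

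The Id proteins act by binding E proteins, and the genes of 3 of these were read beside them. On its brightest probe, Tcf3 was level in ES, MEF and PM2i-iPSC (differences of -0.24 for ES minus MEF and -0.05 for PM2i-iPSC minus MEF). In OM2i-iPSC that probe was 9.42-fold lower than MEF, 7.97-fold lower than ES and 9.10-fold lower than PM2i-iPSC. The second Tcf3 probe gave the same direction for OM2i-iPSC, at -0.76, -1.60 and -1.69 in log2. It was not level with MEF in ES and PM2i-iPSC, where it read higher by 0.85 and 0.93 in log2. Below MEF, Tcf12 was lower by 15.9-fold in ES, by 5.58-fold in PM2i-iPSC and by 10.3-fold for OM2i-iPSC, but its 5 probes disagreed and 1 of them was higher by 3.77, 4.11 and 3.56 in log2. Tcf4 was 1.81-fold, 2.05-fold and 2.22-fold lower than in MEF on its brightest probe, and its other 2 probes read the opposite sign.

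Across the 4 arrays, the genes whose centred profile came nearest to that of an Id gene were found among 11640 genes, by the root mean square distance in log2. Nearest to Id1 were Flnc at 0.068, which encodes the actin crosslinker filamin C, and Zeb1 at 0.089, a transcription factor of mesenchymal cells; 25 genes lay within 0.2. Nearest to Id2 were Cpeb3 at 0.010 and Dnmt1 at 0.041, with 306 genes within 0.2. Nearest to Id3 were Farp1 at 0.193 and Tmem179b at 0.201, and nearest to Id4 were Eea1 at 0.145 and Glrx at 0.203, each with 1 gene within 0.2. With 4 arrays such nearness is a description only.

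Around the members, 60 other genes of the pathway were read in 6 role lists. In ES, 11 of the 52 that entered were at least 2-fold higher than in MEF and 21 lower; in PM2i-iPSC 14 of 52 were higher and 24 lower; in OM2i-iPSC 16 of 51 were higher and 22 lower. The medians were -0.76, -0.54 and -0.75. Against ES, PM2i-iPSC had 11 higher and 7 lower of 49, and OM2i-iPSC 10 higher and 10 lower of 48. Between the preparations, 8 of 47 were higher in OM2i-iPSC and 9 lower. The percentages of all genes given above for the same comparisons apply here too, and the share of lower genes against MEF was above them in each case (21 of 52 beside 22.4%, for example).

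Among 12 other ligands, Bmp6 exceeded MEF on its brightest probe by 45.7-fold in ES, by 75.6-fold in PM2i-iPSC and by 94.9-fold for OM2i-iPSC. Its second probe gave only 0.57, 1.53 and 0.47 in log2, so the size rests on 1 probe. Gdf5, a ligand of joint and limb development, was 5.79-fold lower in ES than in MEF and higher than ES by 2.64-fold in PM2i-iPSC and 3.39-fold in OM2i-iPSC. Bmp5 exceeded MEF by 4.87-fold in PM2i-iPSC and 3.02-fold for OM2i-iPSC, and ES by 3.15-fold in PM2i-iPSC, on its brightest probe; the other 2 of its 3 probes were not well above background in the preparations, and the median over probes gave -0.022 and -0.12 for the differences from MEF. Bmp8a, which is known from germ cell development, was below MEF by 2.79-fold in ES and 4.55-fold in PM2i-iPSC, and OM2i-iPSC was 2.51-fold above PM2i-iPSC. Bmp2, Bmp3, Bmp10, Bmp15 and Gdf2 were not well above background on any array.

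The 9 other receptors and co-receptors held genes in both directions. Acvrl1, a type I receptor of endothelium, was below MEF by 36.8-fold in ES, by 14.3-fold in PM2i-iPSC and by 27.6-fold for OM2i-iPSC. Acvr2b, a type II receptor, was 5.65-fold, 5.83-fold and 9.75-fold higher. Bmpr2, the main BMP type II receptor, was 3.03-fold, 3.41-fold and 3.40-fold lower on its brightest probe, and its other 2 probes were lower as well. Bmpr1b, the sister of Bmpr1a, was well above background in MEF and OM2i-iPSC only, 4.58-fold lower in the latter. Rgma, a BMP co-receptor, exceeded MEF by 4.38-fold in ES. It was lower than in ES by 4.48-fold in OM2i-iPSC and by at least 5.29-fold in PM2i-iPSC. Eng, an endothelial co-receptor, exceeded ES by 3.09-fold in PM2i-iPSC and 2.19-fold for OM2i-iPSC, and Acvr1, another type I receptor, by 2.66-fold for OM2i-iPSC. Acvr2a, a type II receptor, exceeded MEF by 6.28-fold in PM2i-iPSC and 8.27-fold for OM2i-iPSC on its brightest probe, while another of its probes was lower. Endothelial markers summed to 0.760, 0.145, 1.39 and 0.467 in the order ES, MEF, PM2i-iPSC and OM2i-iPSC. These sums join 4 genes of different order. Pecam1 was highest in ES (-1.10) and Tek in PM2i-iPSC (0.17). Cdh5 was well above background only in MEF (-3.38), where Tek and Tie1 were not. The part of such cells in the values of Eng and Acvrl1 was not tested.

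Of 8 other Smads and regulators, Smad7, the second inhibitory Smad, exceeded MEF by 10.5-fold in ES, by 7.25-fold in PM2i-iPSC and by 2.93-fold for OM2i-iPSC. OM2i-iPSC was 3.59-fold below ES and 2.47-fold below PM2i-iPSC, so Smad7 and Smad6 were ordered differently: the highest array was ES for Smad7 and OM2i-iPSC for Smad6. Smad4, the shared partner of the receptor-regulated Smads, was within 2-fold in all 6 comparisons, with differences from -0.47 to 0.30. Smad9, the third BMP-regulated Smad, exceeded MEF by 9.57-fold in PM2i-iPSC and by 4.01-fold on the OM2i-iPSC array on its brightest probe. It was not well above background in ES. Its second probe was not well above background in either preparation and gave no fold. There the measured log2 differences from MEF had the opposite sign, at -1.21 for PM2i-iPSC and -1.47 for OM2i-iPSC. Smurf1, a ubiquitin ligase of Smad1 and Smad5, was 6.05-fold, 12.8-fold and 20.9-fold lower than MEF on its brightest probe, and its second probe was higher by 1.24, 1.53 and 0.52 in log2. Smurf2, its relative, was below ES by 3.69-fold in PM2i-iPSC, and OM2i-iPSC exceeded PM2i-iPSC by 5.09-fold on its brightest probe, but its other 2 probes read -0.27 and 0.23 in log2 for the former and had the opposite sign for the latter. Skil, a repressor of Smad transcription, was below ES by 2.75-fold in PM2i-iPSC and by 2.39-fold in OM2i-iPSC on its brightest probe. Its second probe was lower than in ES by at least 0.78 in log2 in PM2i-iPSC and higher by 0.40 in OM2i-iPSC. Tob1, an antiproliferative Smad regulator, was 2.83-fold higher in PM2i-iPSC than in ES.

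Antagonists of the pathway split by gene. In the order ES, PM2i-iPSC and OM2i-iPSC, Nog exceeded MEF by 15.3-fold, 13.2-fold and 20.2-fold, and Chrd by 4.62-fold, 6.17-fold and 15.6-fold. Both encode proteins that bind BMP4 directly. Grem1 was below MEF by 115-fold in ES, by 68.2-fold for OM2i-iPSC and by at least 310-fold in PM2i-iPSC. Bmper was 56.2-fold, 41.8-fold and 64.1-fold lower, and Nbl1 23.9-fold, 16.9-fold and 70.4-fold lower. Fst, which encodes follistatin, was lower than in ES by 2.18-fold in OM2i-iPSC and by at least 3.76-fold in PM2i-iPSC. Below MEF it was lower by 22.2-fold in ES, at least 83.4-fold in PM2i-iPSC and 48.4-fold in OM2i-iPSC. Of the 16 antagonists, 15, 14 and 14 entered in the order used above. Of these, 5, 4 and 4 exceeded MEF by 2-fold or more, where 33.8%, 34.0% and 36.7% of all genes did, so the higher counts were at or below the background. The lower counts were 6, 7 and 7, where 22.4%, 23.6% and 23.3% of all genes were lower. Grem1, Bmper and Nbl1 were highest in MEF, as the fibroblast markers were.

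Other target genes were counted beyond the Id genes. Of 12 such genes, 11 entered in each comparison with MEF, and 1 in ES, 1 in PM2i-iPSC and 2 for OM2i-iPSC exceeded it by 2-fold or more (33.8%, 34.0% and 36.7% of all genes did). In the same order 6, 6 and 5 were lower (22.4%, 23.6% and 23.3% of all genes were). Against MEF, Dlx2 was 73.4-fold lower in ES, at least 84.2-fold lower in PM2i-iPSC and 48.8-fold lower for OM2i-iPSC. Gata2 was 6.74-fold, 13.0-fold and 10.3-fold lower than in MEF, in the order ES, PM2i-iPSC and OM2i-iPSC. Cdx2 and Msx1 stood higher in OM2i-iPSC than in the other pluripotent arrays: Cdx2, a trophoblast and posterior gene, by 11.0-fold over ES and 12.6-fold over PM2i-iPSC, and Msx1 by 4.58-fold and 4.17-fold. The Msx1 values rest on 1 probe, since its second probe was not well above background on the pluripotent arrays and gave no fold there. Against MEF, Msx1 in OM2i-iPSC was within 2-fold (log2 0.42). Trophoblast markers, Cdx2 among them, summed to 19.1 in ES, 13.7 in PM2i-iPSC, 15.0 for OM2i-iPSC and 3.99 in MEF, a sum made up mostly of Tfap2c and Krt7 in ES. Hand1, another of the 7 trophoblast markers, was highest in OM2i-iPSC as Cdx2 was (-2.74, against -4.75 in ES and -4.35 in PM2i-iPSC), Eomes was lowest there among the pluripotent arrays (-2.28, against -1.73 and -1.56), and Elf5 was not well above background on any array. The part of such cells in the Cdx2 and Msx1 values was not tested. Spp1, a secreted matrix protein, was 5.27-fold lower in OM2i-iPSC than in ES and 3.18-fold lower than in PM2i-iPSC. Runx2, the regulator of bone formation, was below MEF by 53.1-fold in ES, at least 41.0-fold in PM2i-iPSC and at least 41.4-fold in OM2i-iPSC. Atoh8 was 2.14-fold higher in PM2i-iPSC than in ES and 2.26-fold lower in OM2i-iPSC than in PM2i-iPSC, and Dlx5 was 2.15-fold higher for OM2i-iPSC against MEF.

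**Figure D4:**
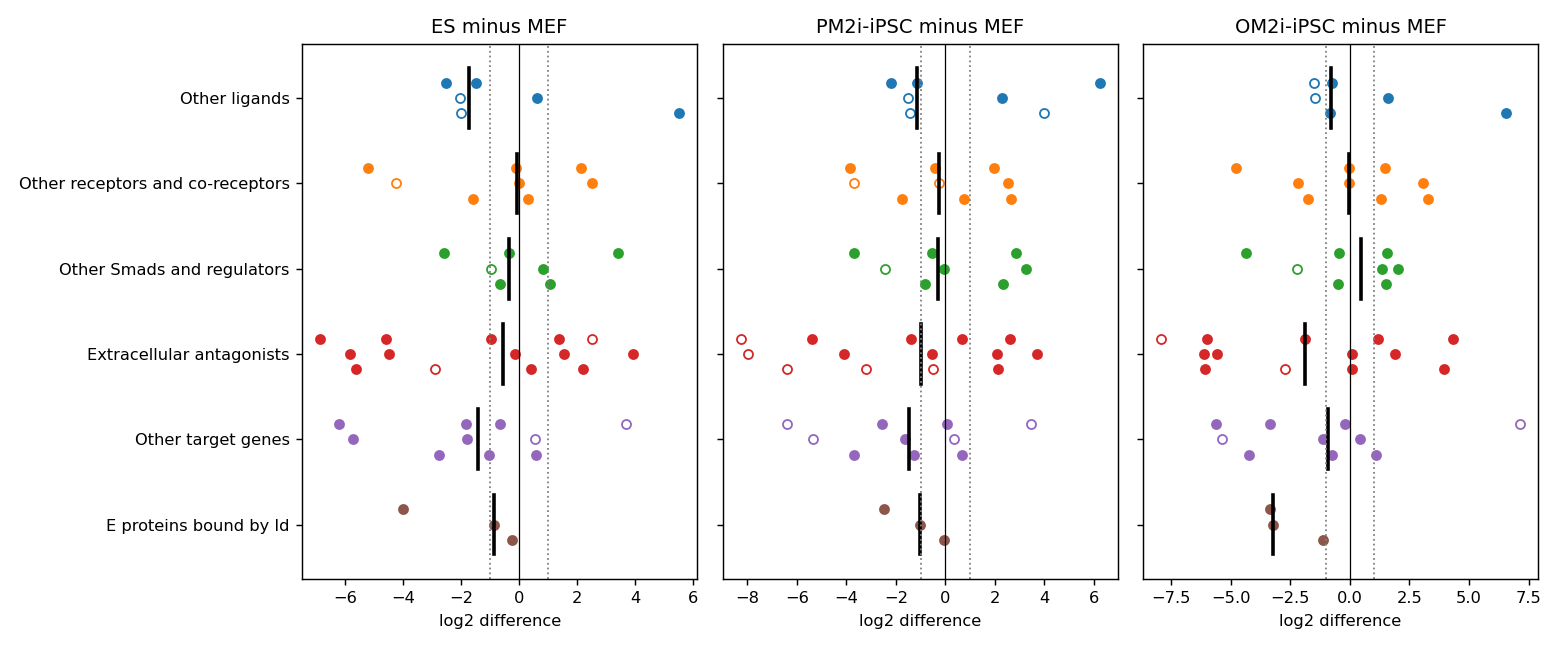
Log2 differences from MEF of the genes of 6 role lists beyond the members, 1 panel per pluripotent array; each point is a gene, open points are bounds, black bars are the median of a list, and dotted lines mark 2-fold. The antagonist row spans from Nog at 3.93 to Grem1 at -6.85 in ES, and Bmp6 is the rightmost ligand in each panel.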

How the data were processed

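The Agilent scanner files deposited by the authors hold spot intensity, read per the file headers by Agilent Feature Extraction, in version 9.5.3.1 for the MEF array and 10.7.3.1 for the other 3. Trizol was the RNA reagent per the labels' protocols. The authors' deposited series table holds the same intensity, within 0.5% for every spot, unscaled, with medians of 414, 165, 493 and 522. Levels are log2 processed signal minus log2 of the 75th percentile of the array, averaged over a probe's spots after removal of control and flagged spots. Names came from RefSeq accessions for 22951 probes, from symbols for 6659, older symbols for 3109, and from the file for 8455; all 18 member probes matched by accession. A gene entered a comparison if well above background on 1 of the 2 arrays. Where the dimmer side was not, or the brighter was saturated, the fold is "at least". Calls are at 2-fold. A run on simulated data planted only changes wider than 2-fold, in probes well above background. It therefore says nothing on differences near 2-fold or near background, or on the spread between cultures. Members and lists were chosen with earlier results of these data known. Named genes are the members, 3 E-protein genes, up to 2 per direction of each list and comparison with the widest measured difference, and the 2 nearest to each Id gene; other named genes (Bmp2, Bmp3, Bmp10, Bmp15, Gdf2, Smad4 and Elf5) were chosen after their values were seen. Python 3.11.15, numpy 2.4.6, pandas 2.3.3, R 4.3.3 and limma 3.58.1 were used.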

Additional observations from a re-analysis of the deposited data

How the results depend on the processing

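The alternatives were run on the member counts and medians, the count over the wider pathway list and the 10 members, and, added after the data were seen, on the 36 counts of single role lists and 98 differences of genes named outside the members; the genes nearest to an Id gene and the marker sums were not rerun. With the deposited table, a single detection floor or only genes well above background on both arrays, all 60 member differences stayed within the spread of spots; the last gave 10 wider-pathway genes at least 2-fold apart for PM2i-iPSC minus ES. Scaling by the median of probes detected on every array shifted all differences from MEF by -0.28 (ES), -0.25 (PM2i-iPSC) and -0.28 (OM2i-iPSC), turned the member median for ES minus MEF to -0.13, put that for OM2i-iPSC minus MEF at -1.78, and changed no member call. Quantile scaling gave -1.17 for the latter and lost 2 calls, Smad6 for ES and Bmpr1a for OM2i-iPSC (-0.76), both against MEF. Normexp left 0 members apart for PM2i-iPSC minus ES and lost 4 calls: Smad6 for ES minus MEF and PM2i-iPSC minus ES, Bmp7 for OM2i-iPSC minus ES (-0.83) and Smad5 for OM2i-iPSC minus PM2i-iPSC (-0.85). The median over a gene's probes changed 11 calls: it gave member medians of -1.16 for OM2i-iPSC minus MEF and -0.15 for OM2i-iPSC minus PM2i-iPSC, 2 members apart for PM2i-iPSC minus ES, and reversed Bmpr1a to 1.22 for OM2i-iPSC minus MEF and 1.15 for OM2i-iPSC minus PM2i-iPSC, since its 2 probes disagree. It also took Smad1 for OM2i-iPSC minus MEF inside 2-fold (-0.94). Outside the members it turned Bmp5 (-0.022 and -0.12) and Tcf4 (0.36 and 0.69) for PM2i-iPSC and OM2i-iPSC minus MEF, Tcf12 for PM2i-iPSC minus ES (-0.52) and Smurf2 for OM2i-iPSC minus PM2i-iPSC (-0.12), whose probes also disagree, and it changed 15 of 98 calls, where normexp changed 10, quantile scaling 6 and median scaling 3. The most role-list counts moved by over 1.5 times, 10 of 36, when both arrays had to be above background, which leaves fewer genes; among the printed counts of antagonists and other targets against MEF, only that of other targets in PM2i-iPSC moved so (4 apart). The cause of the other changes was not tested. No paired analysis was possible because each group has 1 array. Signals near background limit Bmp7 in MEF and the second Bmpr1a probe.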
